A study of Mus musculus with 6 samples.

Results

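The interleukin-1 (IL-1) family genes described here are 8 of the 28822 rows of a gene count table, found by symbol: the ligand genes Il1a, Il1b and Il18, the receptor genes Il1r1 and Il1rap, the decoy receptor gene Il1r2, and the genes Il1rn and Il18bp, which encode secreted inhibitors. All 8 were in the table and all 8 were expressed enough to be tested. They were measured by bulk RNA sequencing of poly(A) RNA in 6 samples of mouse bone marrow-derived macrophages (BMDMs), macrophages grown from marrow precursors. The labels of every sample name BMDMs together with HT22 cells, and the title names BMDMs. The series' design text allows either BV2 cells, a mouse microglial line, or BMDMs above the HT22 cells. The cell type therefore rests on the labels and title. The macrophages were kept in a Transwell insert, whose membrane passes soluble factors, above HT22 cells, an immortalised mouse hippocampal neuronal line that had gone through 2 h of oxygen-glucose deprivation, a culture model of ischaemia. In 3 samples the co-culture received BW723C86, an agonist of the serotonin receptor 5-HT2B, and in 3 it received the vehicle DMSO, so that the deprived HT22 cells were common to both groups. The comparison addressed the effect of the agonist on macrophage transcripts. The sources used here do not state the mouse strain, age or sex, the dose, the length of treatment, or whether replicates came from separate cultures. The p-values therefore set the difference between groups only against how much these samples vary within a group, and that variation may be technical.

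IL-1 alpha and IL-1 beta signal through a receptor made of the chain encoded by Il1r1 and the accessory chain encoded by Il1rap. The receptor antagonist (Il1rn) occupies IL1R1 without recruiting the accessory chain, and the type 2 receptor (Il1r2) binds IL-1 but has no signalling domain. IL-18 is restrained in a parallel way by the soluble IL-18 binding protein (Il18bp). Macrophages are a main source of these ligands and of both soluble inhibitors, and IL-1 beta and IL-18 are made as inactive precursors that caspase-1 cleaves.

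The windows from 250 bases before to 50 bases after the annotated starts of 4 of the genes are shown, because they are those of both IL-1 ligands, of the antagonist, which fell furthest, and of the only gene that rose. They come from RefSeq (build GRCm38.p6) and run 5′ to 3′ on the gene's strand. Capitals mark matches on either strand to 3 motifs, the TATA box (TATAAA), the AP-1 site (TGANTCA) and the core of the PU.1 site (GAGGAA).
Il1a (chr2:129309923-129310222, minus strand): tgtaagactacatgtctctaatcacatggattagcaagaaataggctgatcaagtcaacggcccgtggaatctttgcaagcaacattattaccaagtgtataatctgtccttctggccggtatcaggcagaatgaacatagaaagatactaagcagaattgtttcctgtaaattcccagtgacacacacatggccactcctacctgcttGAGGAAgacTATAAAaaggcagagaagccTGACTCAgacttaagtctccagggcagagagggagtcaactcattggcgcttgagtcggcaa
Il1b (chr2:129371090-129371389, minus strand): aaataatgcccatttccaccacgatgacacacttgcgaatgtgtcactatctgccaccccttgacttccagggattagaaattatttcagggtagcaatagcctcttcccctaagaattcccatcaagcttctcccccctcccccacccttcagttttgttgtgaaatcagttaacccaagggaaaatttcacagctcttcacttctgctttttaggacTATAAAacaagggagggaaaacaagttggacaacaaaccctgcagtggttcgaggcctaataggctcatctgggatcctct
Il1rn (chr2:24336610-24336909, plus strand): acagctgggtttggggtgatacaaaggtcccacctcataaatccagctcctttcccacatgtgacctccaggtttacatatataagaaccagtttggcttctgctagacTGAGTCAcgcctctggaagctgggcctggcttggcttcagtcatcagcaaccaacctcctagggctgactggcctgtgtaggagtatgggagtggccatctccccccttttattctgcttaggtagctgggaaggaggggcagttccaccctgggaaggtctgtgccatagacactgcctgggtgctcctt
Il18bp (chr7:102018183-102018482, minus strand): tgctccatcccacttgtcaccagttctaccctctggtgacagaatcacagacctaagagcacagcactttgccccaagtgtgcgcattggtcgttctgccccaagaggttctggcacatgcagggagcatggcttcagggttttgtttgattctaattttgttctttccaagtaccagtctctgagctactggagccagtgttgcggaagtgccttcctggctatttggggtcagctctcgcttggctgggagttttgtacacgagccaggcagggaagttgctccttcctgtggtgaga

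The Il1a window held all 3 motifs, PU.1 from position -41, TATA from -32 and AP-1 from -12, counted from the start, and none of the 3 matches overlapped another. In the Il1b window the TATA match began at -31, and the Il1rn window held an AP-1 match from -141. These letters did not occur in the Il18bp window. Il1rn has 2 further annotated starts, and the 8 genes had 11 windows in all. A TATA match was found in 4 of these windows, 1 each of Il1a, Il1b, Il1rn and Il18. The Il18 match began at -175. The Il1rn match, in the window of a start other than the one shown, began at position 15, past the start. Both of these read TATAAA on the opposite strand. The AP-1 letters matched in 2 windows (Il1a and Il1rn) and the PU.1 letters in 1 (Il1a). Among 32851 RefSeq windows of the same length, 13.6% held the TATA letters, 7.81% the AP-1 letters and 28.3% the PU.1 letters. The STAT site (TTCNNNGAA), also searched on both strands, was matched for Il1r2 alone and in 8.3% of all windows. A match describes letters in a window and was not tested for binding. Motifs for NF-kB and interferon-responsive elements were also searched and are left out here, a choice made after their matches had been seen.

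The table held 58841307 to 75931615 counts per library and 19034 to 20002 genes with a count. Values are CPM, that is, counts put on the same library size after TMM scaling, a correction for differences in library composition. Mitochondrially encoded genes took 4.49 to 4.55% of counts in DMSO and 2.91 to 3.4% with BW723C86. BW723C86 replicate 2 differed most from its group. The chi-square of its counts per degree of freedom was 35.5 and 24.4 when set beside the other two treated libraries, and 9.83 to 11.1 for the remaining pairs within a group. Macrophage markers were all 12 present in the table, and 8 rose, 2 fell and 2 did not pass (median log2 fold change 0.42). Their sum, most of it Lyz2, the lysozyme gene, which fell, was 35500 to 36300 CPM in DMSO and 32800 to 33800 CPM with BW723C86. Neuronal markers summed to at most 0.924 CPM in any library, and Map2, Nefl and Dcx had no count in any of the 6.

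With BW723C86, 7 of the 8 genes fell and 1, Il18bp, rose. The largest decreases were those of the antagonist Il1rn and the ligand Il1b, at 6.37-fold and 5.42-fold by group means, followed by the decoy Il1r2 at 3.21-fold. Il18 and Il1rap fell by about the same factor (2.02 and 1.98), and Il1a and Il1r1 by less (1.79 and 1.64). Groups did not overlap for any of the 8. The comparison as a whole was broad: 42% of 15567 tested genes changed at an adjusted p under 0.05, 20.7% lower and 21.3% higher. Groups did not overlap for 26% of tested genes in the lower and 26.3% in the higher direction. The median log2 fold change was -0.999 over the 8 genes and 0.004 over all tested genes. With library totals in place of TMM scaling, 4124 genes were lower and 2581 higher, against 3215 and 3319, while the 8 genes kept 7 lower and 1 higher.

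**Figure D1:**
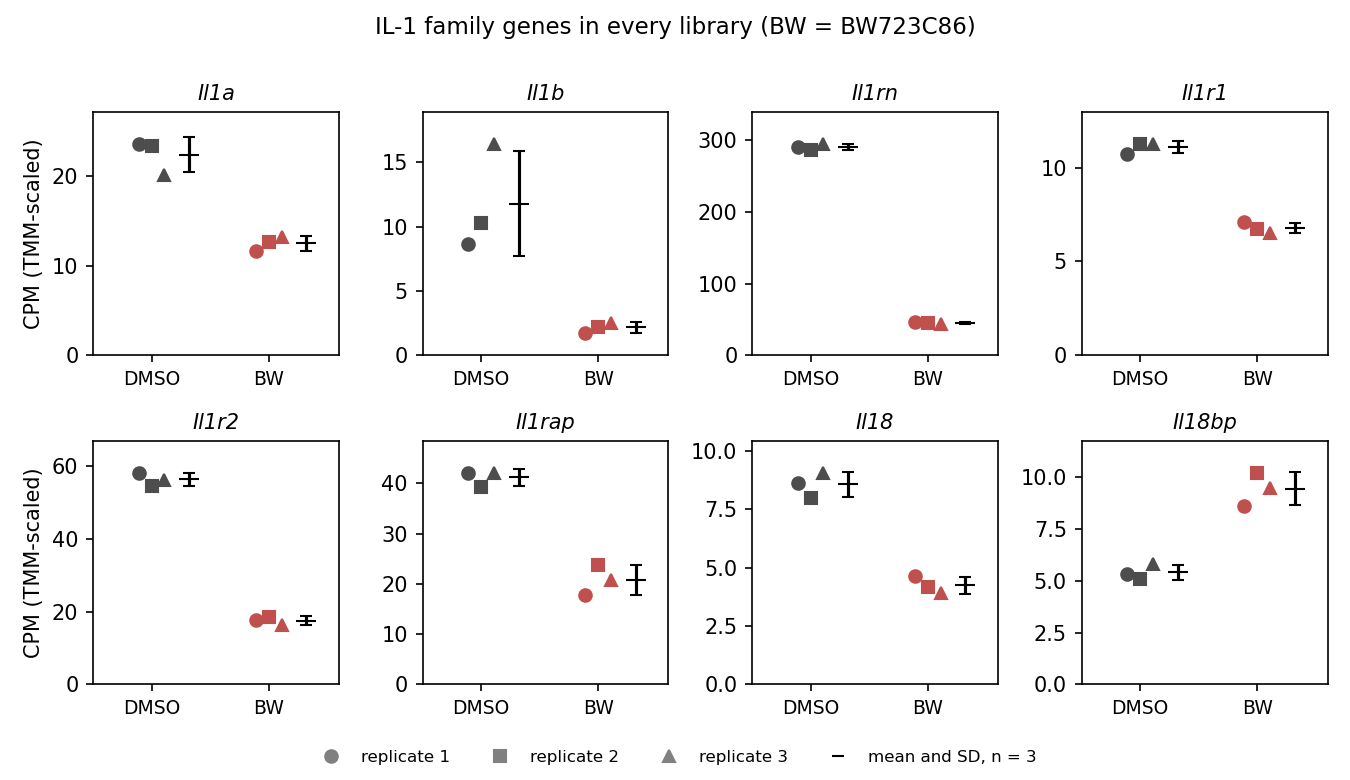
CPM of each of the 8 genes in the 3 DMSO and 3 BW723C86 (BW) libraries, with a linear axis from 0 in each panel; marker shapes give the replicate number and the bar the mean and SD (n = 3). The groups do not overlap in any panel, Il18bp alone is higher with BW723C86, and Il1b in DMSO replicate 3 (16.4 CPM) stands above the other DMSO libraries.

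Il1b, the gene of the inflammasome-processed ligand IL-1 beta (ENSMUSG00000027398), stood at 8.67, 10.3 and 16.4 CPM in DMSO replicates 1 to 3 and at 1.76, 2.22 and 2.55 CPM in BW723C86 replicates 1 to 3. DMSO replicate 3 was well above the other two, yet the lowest DMSO library still held more than 3 times the highest BW723C86 library. Group means were 11.8 ± 4.09 and 2.18 ± 0.396 CPM (SD, n = 3 per group), and the log2 fold change was -2.44 with an SE of 0.24 (adjusted p = 1.5e-05). Without DMSO replicate 3 the log2 fold change was -2.12. The BW723C86 values rest on counts of 101, 160 and 151. Low counts in the table pile up at 4 (4613 entries, against 2904 at 3 and 2552 at 5), so a sequenced fragment may be worth several counts and these numbers may stand for fewer fragments.

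Il1a, the gene of IL-1 alpha (ENSMUSG00000027399), which is active without caspase-1 cleavage and also acts as an alarm signal from dying cells, stood at 23.6, 23.4 and 20.2 CPM in DMSO. With BW723C86 it stood at 11.6, 12.6 and 13.2 CPM. Its DMSO replicate 3 was the lowest of that group, where Il1b had its highest value. The means of 22.4 ± 1.93 and 12.5 ± 0.802 CPM corresponded to -0.84 on the log2 scale (SE 0.09, adjusted p = 6e-06). The 95% interval of the Il1a change, -1.03 to -0.65, did not reach that of Il1b, -2.97 to -1.90.

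Il18, the gene of the interferon-gamma-inducing cytokine IL-18 (ENSMUSG00000039217), stood at 8.65, 8.01 and 9.07 CPM in DMSO and at 4.66, 4.17 and 3.94 CPM with BW723C86. The groups were tight and apart, with means of 8.58 ± 0.535 and 4.25 ± 0.368 CPM and a difference of -1.01 on the log2 scale (SE 0.12, adjusted p = 2.2e-05).

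Among the receptors, Il1r1, the signalling chain (ENSMUSG00000026072), was expressed at 10.7, 11.3 and 11.3 CPM in DMSO and at 7.08, 6.73 and 6.52 CPM with BW723C86. Its fall was the smallest of the 7 (log2 fold change -0.71, SE 0.10, adjusted p = 6.2e-05). Il1rap, whose product is shared with the receptors for IL-33 and IL-36 (ENSMUSG00000022514), gave 42.1, 39.3 and 42.1 CPM in DMSO and 17.8, 23.7 and 20.7 CPM with BW723C86. The BW723C86 libraries spread more than those of DMSO, with replicate 2 the highest, and the groups were still far apart (log2 fold change -0.99, SE 0.09, adjusted p = 1.6e-06). Counts are per gene, so the membrane and soluble forms of the accessory chain cannot be told apart.

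Il1r2, the decoy receptor (ENSMUSG00000026073), stood at 58.2, 54.7 and 56.3 CPM in DMSO and at 17.8, 18.6 and 16.3 CPM with BW723C86. Every DMSO library stood far above every BW723C86 library. The log2 fold change was -1.68 (SE 0.07, adjusted p = 3.9e-10), and its interval of -1.82 to -1.54 lay below those of Il1r1 and Il1rap.

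Il1rn, the receptor antagonist (ENSMUSG00000026981), stood at 291, 286 and 294 CPM in DMSO and fell to 46.8, 45.8 and 44.1 CPM with BW723C86. The replicates of a group agreed closely, with means of 290 ± 4.40 and 45.6 ± 1.35 CPM. The log2 fold change of -2.67 (SE 0.05, adjusted p = 3.1e-13) was exceeded by few genes, since 0.886% of all tested genes had one at or below it. The corresponding share was 1.12% for Il1b and 2.41% for Il1r2. The 95% intervals of Il1rn (-2.77 to -2.57) and Il1b overlapped. Secreted and intracellular forms of the antagonist, which differ in their first exon, are pooled in the gene count.

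Il18bp, the IL-18 binding protein gene (ENSMUSG00000070427), went the other way. It stood at 5.34, 5.07 and 5.79 CPM in DMSO and at 8.62, 10.2 and 9.47 CPM with BW723C86, higher in each treated library than in any control. Means of 5.40 ± 0.365 and 9.43 ± 0.795 CPM corresponded to 0.80 on the log2 scale (SE 0.12, 95% interval 0.55 to 1.05, adjusted p = 9.8e-05). Exons of Il18bp overlap exons of Numa1, a mitotic spindle gene on the opposite strand. The sources used here do not say whether reads were counted by strand. Numa1 had 6763 to 8991 counts per library and its log2 fold change of 0.08 (SE 0.04) did not pass (adjusted p = 0.2). The antisense genes that overlap exons of Il1a, Il1b and Il1rap (Gm14023, Il1bos and Gm20319) had summed counts over the 6 libraries of 70, 71 and 7.

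**Figure D2:**
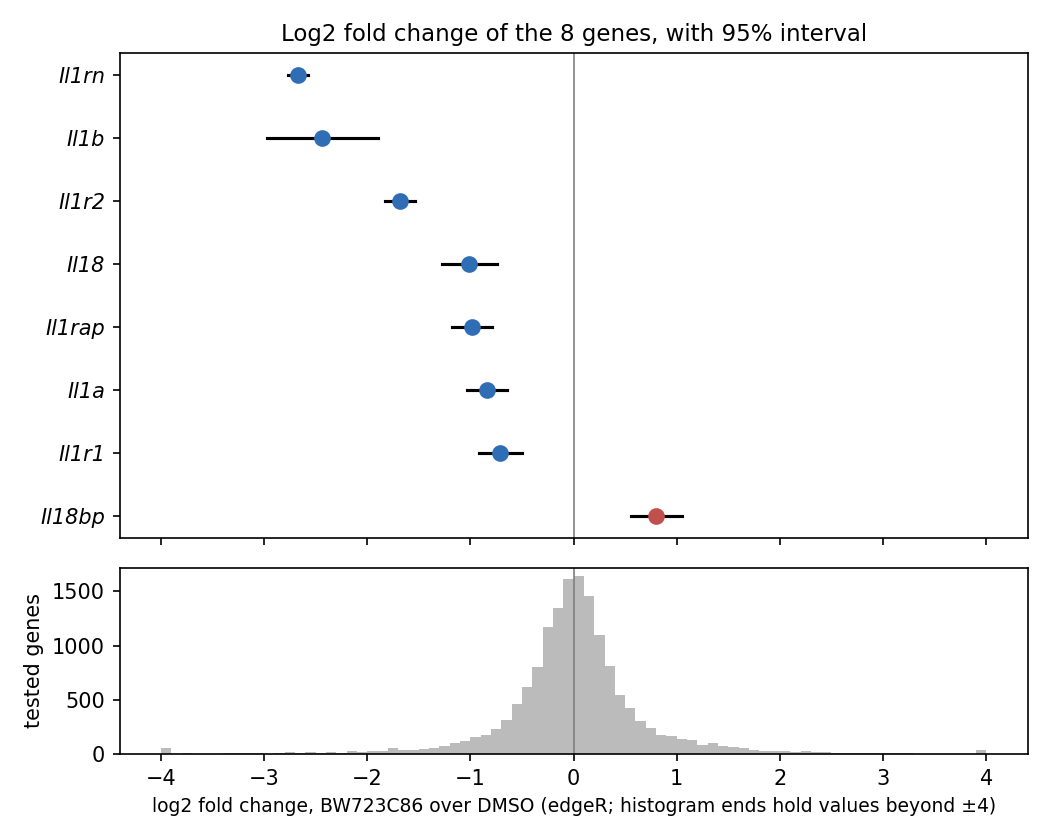
Upper panel, log2 fold change (BW723C86 over DMSO) of the 8 genes as points with 95% intervals from edgeR; lower panel, histogram of the log2 fold changes of all 15567 tested genes. Il1rn (-2.67), Il1b (-2.44) and Il1r2 (-1.68) lie farthest to the left and Il18bp (0.80) alone lies to the right of 0.

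Levels of different genes were compared per length, as CPM per kilobase of the longest coding transcript. In DMSO the order was Il1rn (117 ± 1.78), Il1r2 (39.8 ± 1.25), Il1a (11.3 ± 0.975), Il18 (9.69 ± 0.605), Il1rap (9.10 ± 0.358), Il1b (8.70 ± 3.02), Il18bp (2.08 ± 0.141) and Il1r1 (1.90 ± 0.0522). The 2 leading genes, both encoding inhibitors, were clear of the rest. Il1a lay close to Il18, its lowest DMSO library at 10.2 against 10.3 for the highest of Il18, and the libraries of Il18, Il1rap and Il1b overlapped. With BW723C86 the order was Il1rn (18.4 ± 0.546), Il1r2 (12.4 ± 0.804), Il1a (6.34 ± 0.406), Il18 (4.81 ± 0.416), Il1rap (4.59 ± 0.654), Il18bp (3.63 ± 0.306), Il1b (1.61 ± 0.292) and Il1r1 (1.17 ± 0.0488). In this group the libraries of Il18 and Il1rap overlapped, and no other neighbours in the order did. Il18bp thus stood above Il1b in treated libraries and below it in controls. These orders depend on the length used. Per kilobase of all exons joined, Il1r2 (9.21 ± 0.598) stood above Il1rn (8.23 ± 0.244) with BW723C86 and below it in DMSO (29.6 ± 0.929 against 52.4 ± 0.795). Il1rap, per kilobase of all exons joined, stood below Il1b in DMSO (3.62 ± 0.142 against 6.19 ± 2.15) and below Il18bp with BW723C86 (1.83 ± 0.26 against 3.12 ± 0.263). The other places in both orders were the same with either length.

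The inhibitors were then set against what they inhibit within each library, a ratio that does not depend on the scaling between libraries. The level of each ratio does depend on the gene lengths used. Antagonist transcripts per kilobase were 6.40, 5.94 and 5.33 times those of both IL-1 ligands together in DMSO and 2.63, 2.31 and 2.08 times with BW723C86. The summed ligand transcripts fell, and the antagonist transcripts fell further. On the log2 scale the ratio went from 2.55 ± 0.133 to 1.22 ± 0.170 (SD, n = 3 per group), a difference of -1.34. With BW723C86 most of the ligand sum was Il1a (mean 6.34 CPM per kilobase, against 1.61 for Il1b). Il1a fell by less than Il1b (log2 fold change -0.84 against -2.44). A further fall of Il1rn (-2.67) than of Il1b alone was not shown, because their intervals overlapped. Decoy to signalling receptor, Il1r2 over Il1r1, went from 22.3, 19.9 and 20.5 to 10.3, 11.3 and 10.3, a log2 difference of -0.97. Il18bp over Il18 moved in the opposite direction, from 0.211, 0.216 and 0.218 to 0.631, 0.834 and 0.821, a log2 difference of 1.82. BW723C86 replicate 1 was the lowest of the treated libraries in this last ratio. No ratio overlapped between groups. For each of the 3 ratios the two-sided exact permutation test gave p = 0.1 (0.1 adjusted over the 3), the smallest that 3 against 3 samples allow, so none could pass 0.05. Ratios of transcripts say nothing of the secreted proteins, which were not measured.

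**Figure D3:**
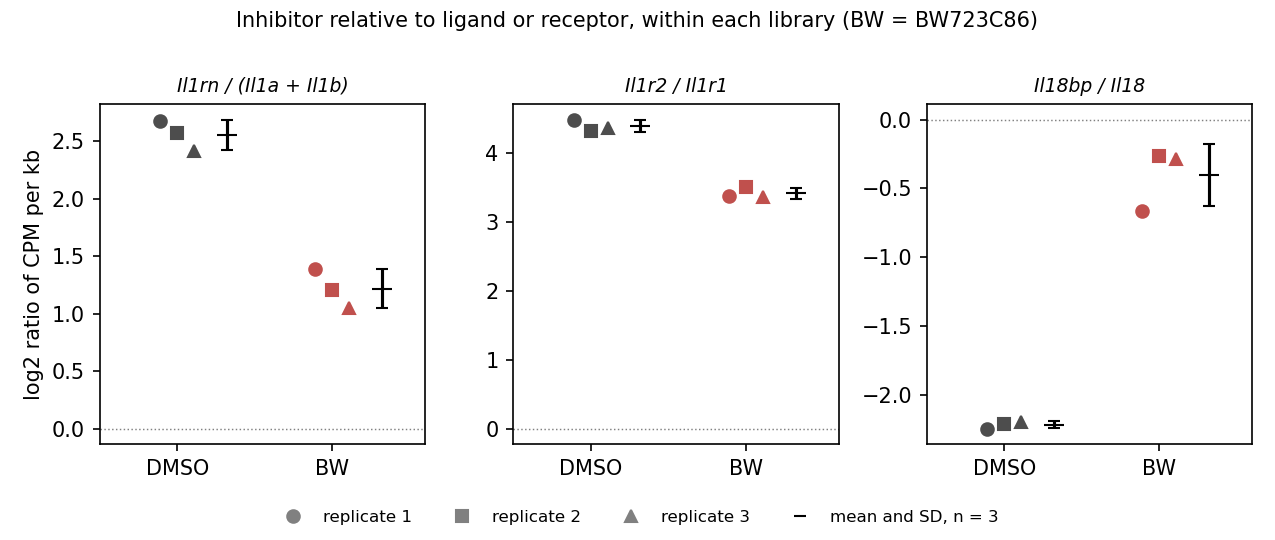
Log2 ratio of inhibitor to ligand or receptor transcripts (CPM per kilobase) within each of the 3 DMSO and 3 BW723C86 (BW) libraries, with mean and SD (n = 3); the axes do not share a range. Il1rn over the sum of Il1a and Il1b falls from 2.55 to 1.22, Il1r2 over Il1r1 from 4.38 to 3.41, and Il18bp over Il18 rises from -2.22 to -0.40.

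Of 13 other ligands and receptors of the IL-1 family, 8 were matched in the table and 6 were tested. Among these, 4 fell, none rose and 2 did not pass (median log2 fold change -0.63). Both chains of the IL-18 receptor fell, Il18r1 from 6.34 ± 0.929 to 2.31 ± 0.150 CPM (log2 fold change -1.46, adjusted p = 7.6e-06) and Il18rap from 21.5 ± 2.36 to 7.08 ± 1.35 CPM (-1.60, adjusted p = 6.7e-07). The gene of IL-36 gamma, under its older symbol Il1f9, fell from 57.0 ± 2.55 to 33.1 ± 3.15 CPM (-0.79). Il1rl1, encoding the IL-33 receptor ST2, fell from 3.62 ± 0.0862 to 2.62 ± 0.195 CPM (-0.46, adjusted p = 0.032). The Il1rl1 call was lost in 6 of 16 alternative fits: with the replicate block (adjusted p = 0.0563), without any 1 DMSO library (0.0611 to 0.0959), and without BW723C86 replicate 1 (0.0577) or 3 (0.0852). Il1rl2, the IL-36 receptor chain, was level at 49.0 ± 1.20 and 49.2 ± 1.99 CPM without passing the test, with a 95% interval of -0.11 to 0.13. Sigirr, an inhibitory member of the receptor family, did not pass either (2.40 ± 0.422 and 2.71 ± 0.454 CPM). Il33 had at most 8 counts in a library. Il1f8, the IL-36 beta gene, had none. A floor of 3 counts would be 0.0386 to 0.0523 CPM (counting error only), and higher if a fragment is worth several counts.

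Genes of the signalling machinery downstream of the receptor went in both directions. Of 26 genes, 10 fell, 6 rose and 10 did not pass, with a median log2 fold change of 0.03. A share of 61.5% changed, against 42% of all tested genes. Irak3, encoding the inhibitory kinase IRAK-M, fell the most, from 42.4 ± 0.488 to 21.8 ± 1.60 CPM (-0.96, adjusted p = 1.2e-07), followed by Map3k8, encoding the kinase TPL2, at -0.84. Mapk14, encoding p38 alpha, fell by 0.29 on the log2 scale and Irak1 rose by 0.29. Mapkapk2 and Nfkb1 did not pass, with intervals of -0.09 to 0.13 and -0.15 to 0.08. With library totals in place of TMM scaling, 3 rather than 6 genes of this list were higher. The Irak4 call (higher, adjusted p = 0.049) was lost in 12 of 16 alternative fits. Calls were also lost for Map3k3 (lower) in 5, Traf6 (higher) in 3, Tollip (higher) in 2 and Tifa (lower) in 1.

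Genes for maturation and release of IL-1 and IL-18, the inflammasome and gasdermin genes, were lower in 9 of 17 cases, higher in 2 and not past in 6 (median -0.22, 64.7% changed). Gsdme, a gasdermin that forms membrane pores, fell from 27.0 ± 1.46 to 12.03 ± 1.70 CPM (-1.16, adjusted p = 7.6e-07). Pycard, the inflammasome adaptor ASC, fell from 231 ± 6.72 to 157 ± 15.6 CPM (-0.56), and the caspase gene Casp8 by 0.33 on the log2 scale. Txnip, encoding a thioredoxin-binding protein, fell from 1410 ± 5.55 to 735 ± 14.1 CPM (-0.94). Nek7, an NLRP3 partner, and Capn2, a calpain gene, did not pass (0.08 and -0.12). Casp1, which encodes the enzyme that cleaves both precursors and is named here after its values were seen, had means of 40.9 and 43.9 CPM, a difference that did not pass (0.10, SE 0.06, adjusted p = 0.16). With library totals, 1 rather than 2 of these genes was higher. Without DMSO replicate 2, 7 rather than 9 were lower. The Casp4 call (lower) was lost in 4 of 16 alternative fits, and those of Gsdmd (lower) and P2rx7 (higher) in 1 each.

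For proteases known to shed IL-1 receptors, 4 of 5 genes were tested, and 2 fell, 1 rose and 1 did not pass (median -0.13). Adam10 and Erap1 fell by 0.16 and 0.21 on the log2 scale and Bace1 rose by 0.38. For Adam17 the means of 129 ± 3.61 and 121 ± 7.83 CPM were not told apart by the test (-0.10). The count of 2 lower genes was 0 without DMSO replicate 1, and 1 without DMSO replicate 3 or without BW723C86 replicate 3.

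Genes that IL-1 is known to induce were mostly lower. Of 17 tested among 23, 13 fell, 2 rose and 2 did not pass (median -2.02, 88.2% changed). Cxcl3 and Cxcl2, encoding chemokines that attract neutrophils, fell from 99.7 ± 4.14 to 1.04 ± 0.0852 CPM (-6.59, adjusted p = 1.4e-14) and from 9.75 ± 0.941 to 2.24 ± 0.228 CPM (-2.12). Lcn2, the lipocalin-2 gene and also a neutrophil marker, fell from 52.2 ± 2.45 to 5.80 ± 0.779 CPM (-3.17). Vcam1, an adhesion molecule gene, fell from 8.04 ± 0.136 to 1.84 ± 0.360 CPM (-2.12). Tnfaip3, encoding the NF-kB feedback inhibitor A20, and Saa3, an acute-phase gene, did not pass (-0.21 and 0.05). These genes answer to many signals besides IL-1, and this list was chosen with part of its values in these libraries known.

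Of 13 transcription factor genes known to act on IL-1 genes, 7 fell, 5 rose and 1 did not pass (median -0.13, 92.3% changed). Hif1a, encoding the hypoxia-inducible factor subunit that acts on Il1b, fell from 268 ± 6.83 to 94.3 ± 5.51 CPM (-1.51, adjusted p = 1.1e-10). Members of the AP-1 and ATF families rose, Atf3 from 62.7 ± 3.55 to 156 ± 4.27 CPM (1.31), Fos from 16.4 ± 1.36 to 38.7 ± 2.10 CPM (1.24) and Jun from 59.5 ± 3.17 to 104 ± 1.66 CPM (0.80). Spi1, encoding PU.1, had means of 459 ± 7.97 and 479 ± 42.7 CPM, which did not pass (0.06, 95% interval -0.07 to 0.19). Without DMSO replicate 2, 4 rather than 7 of these genes were lower.

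**Figure D4:**
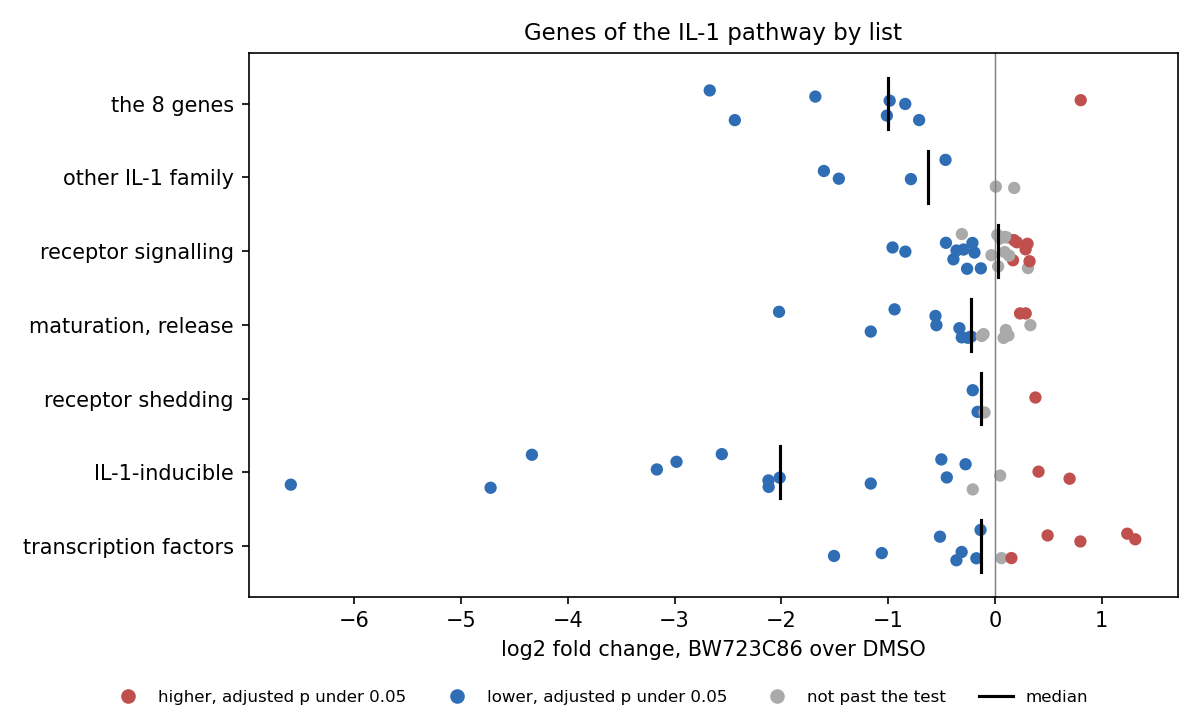
Log2 fold change (BW723C86 over DMSO) of each tested gene, one row per list, with red points higher, blue points lower and grey points not past edgeR's test, and a bar at the median. The IL-1-inducible genes (median -2.02) and the 8 IL-1 family genes (median -0.999) lie mostly to the left, while the receptor signalling genes (median 0.03) lie around 0.

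Neutrophil and monocyte markers mostly fell, as did 7 of the 8 genes, while dendritic cell markers mostly rose. In bulk samples, fewer cells of a type and less RNA per cell cannot be told apart. Neutrophils and monocytes are known to carry Il1r2, Il1rn, Il1b and Il18rap transcripts. All 13 tested neutrophil markers of 16 fell, and their sum ranged over 2660-2740 CPM in DMSO and 717-822 CPM with BW723C86, most of it Mmp8, the neutrophil collagenase gene. Camp (0.173 CPM in DMSO and 0.118 CPM with BW723C86), Mpo (0.0534 and 0.167 CPM) and Retnlg (0.078 and 0 CPM) were too low to be tested. Ly6g, a defining surface marker of mouse neutrophils, stood at 2.22 and 0.0324 CPM. Its BW723C86 value rests on 7 counts in replicate 2 and 0 in replicates 1 and 3. Of 12 monocyte markers 11 fell and 1 did not pass, and their sum ranged over 8230-8320 CPM and 2520-2710 CPM, led by Chil3, Fn1 and Itgam. Dendritic cell markers rose in 7 of 10 tested cases with none lower, with a sum of 954-956 CPM and 4570-4900 CPM, mainly Itgax and H2-Aa. Lymphocyte and mast cell markers fell in 6 of 7 tested cases, and their sum ranged over 104-110 CPM and 56.2-60.7 CPM. Most of that sum was Cpa3 (51.6 and 11.7 CPM) and Kit, which did not pass (46.4 and 44.9 CPM). Cd4, the next highest, stood at 4.49 and 1.38 CPM. Microglia markers rose in 3 and fell in 3 of 6 tested cases (median log2 fold change -0.27), and their sum ranged over 315-321 CPM and 434-457 CPM. Each of these sums was apart between groups, as were 26% of all tested genes in the lower and 26.3% in the higher direction. Of all tested genes, 42% changed at an adjusted p under 0.05. The part of such cells in the values of the 8 genes was not tested.

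The genes whose profiles over the 6 libraries lay nearest to those of Il1b and Il1rn were found among 12592 tested protein-coding genes, by Euclidean distance of log2 CPM centred on each gene's mean. These libraries fall into the same 2 groups for every gene, so the distances mainly reflect the size of the difference between groups. Nearest to Il1b were Ccr4, a chemokine receptor gene (distance 0.39), Camk2n1, encoding an inhibitor of CaMKII (0.50), Myoz1 (0.67) and Klra2, of the Ly49 receptor family (0.68). Ccr4 also had its highest DMSO value in replicate 3, at 1.14 CPM against 0.823 and 0.862, and its BW723C86 counts were 7, 14 and 12. Nearest to Il1rn were the scavenger receptor gene Marco (0.12), the laminin chain gene Lama5 (0.17), Slfn1 (0.19) and the sorting receptor gene Sorl1 (0.25). Sorl1 went from 118, 120 and 117 CPM in DMSO to 18.8, 20.8 and 21.2 CPM with BW723C86.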

How the data were processed

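Per the labels' protocols, poly(A) RNA was made into strand-marked libraries with dUTP and sequenced as paired ends. The submitters' processing notes name fastp, HISAT2, StringTie and edgeR and the builds GRCm39 and GRCh38, without version or role. The authors deposited estimated counts for each gene. All were whole, and rounding left them as they were. Of 28822 identifiers, 27005 had a symbol in GENCODE M21, which describes another build and was used for names and lengths. All rows named a gene.

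Genes were tested with a robust quasi-likelihood fit in edgeR 4.0.16 under R 4.3.3, with TMM scaling and the default expression filter. The two-sided p-values of 15567 genes were adjusted by Benjamini-Hochberg, with a threshold of 0.05. On counts simulated for this comparison (15225 genes tested), the fit called 44 of 47 genes lowered by 2 on the log2 scale and 49 of 50 raised by 2, 31 of 50 lowered by 1 and 37 of 50 raised by 1, and 3 of 15028 left unchanged. In the simulation 15028 of 15225 genes were left unchanged, while 42% of tested genes changed in the data. The simulated rates therefore do not show how the fit performs at that share of changed genes. SE and 95% intervals are of the log2 fold change. DESeq2 1.42.0 and limma-voom (limma 3.58.1) were alternatives. Ratios used the longest coding transcript, a length chosen after the files were seen. The 8 genes and all lists were chosen with earlier results of these data known. Named genes were all 8, up to 4 of smallest p and 2 of highest mean not past the test per pathway list, up to 3 of highest mean per marker list, and the 4 nearest profiles. Casp1, Casp4, Gsdmd, P2rx7, Il33, Il1f8, Ly6g, Camp, Mpo, Retnlg, Irak4, Map3k3, Traf6, Tollip, Tifa, the overlapping genes and the markers without counts were named outside that rule. Motifs for NF-kB and for interferon-responsive elements were also searched and were left out of the account after their matches had been seen.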

Additional observations from a re-analysis of the deposited data

How the results depend on the processing

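Each of the 8 genes kept its direction and its side of the threshold in all 16 alternative fits: RLE, upper-quartile and library-total scaling, no filter on low counts, at least 1 CPM in 3 libraries, DESeq2, limma-voom, a fit that was not robust, counts divided by 4, the replicate block, and each of the 6 libraries left out. The log2 fold change ranged from -2.75 to -2.66 for Il1rn, -2.62 to -2.12 for Il1b, -1.76 to -1.64 for Il1r2 and 0.73 to 0.86 for Il18bp, with largest adjusted p of 4.20e-10, 0.00434, 6.31e-08 and 0.00115. The difference between groups in each log2 ratio moved by less than the spread between replicates in each of the following alternatives. These were no length, all exons joined (an alternative chosen after seeing the data), 0.5 counts added and each library left out. For Il1r2 over Il1r1 and Il18bp over Il18, lengths cancel in this difference, so the alternatives of length could not move it. The ratios themselves do shift with the length. In DMSO Il1a stood at 11.3 CPM per kilobase with either length. Il1rn stood at 117 with the longest coding transcript and 52.4 with all exons joined. With library totals alone, the log2 change of marker sums was -1.75 rather than -1.67 for monocytes, -0.182 rather than -0.108 for macrophages (of whose 12 markers 8 rose singly), 0.418 rather than 0.492 for microglia, 2.24 rather than 2.32 for dendritic cells and -0.941 rather than -0.868 for lymphocytes and mast cells. No deviation shared by replicate number was seen: deviations of same-numbered libraries correlated at 0.031, -0.025 and -0.005, and not every library correlated best with its own number. With 3 libraries per group this cannot show whether the samples were paired. With the replicate block 6179 rather than 6534 genes changed, the 8 genes gave 7 lower and 1 higher, and the permutation within pairs gave p = 0.25 for each ratio, the smallest possible. Depth limits Il33, Il1f8 and other genes near 0.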
